A study of Mus musculus with 6 samples.

Results

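The 10 genes described here are the transcription factor Nrf2 (gene Nfe2l2), its repressor Keap1 and 8 known targets of Nrf2, namely Nqo1, Hmox1, Gclc, Gclm, Gsr, Srxn1, Txnrd1 and Slc7a11. They were chosen by name, with earlier results of these data known, among the 18193 genes with a probe set on the array. Every probe set annotated to exactly 1 of the 10 symbols was taken, which gave 21 of the 45037 probe sets tested. All 10 genes were measured, 2 of them (Nqo1 and Hmox1) by a single probe set.

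Pancreatic islets were isolated from 3 hIAPP-Tg mice (mice 4, 5 and 6) and 3 wild-type mice (mice 1, 2 and 3), all 12 weeks old and fed standard chow ad libitum, and the RNA of each mouse was put on 1 Affymetrix whole-genome array. The hIAPP-Tg mice carry human islet amyloid polypeptide (IAPP) under the Ins2 promoter, so the transgene is driven in beta cells, while an islet preparation also holds other endocrine, vascular, immune and some exocrine cells. Mice of both genotypes are labelled with the transgenic strain name, FVB/N-Tg(Ins2-IAPP)RFHSoel/J, and whether the wild-type mice were littermates is not stated. All values are log2 RMA values as deposited, and all differences are hIAPP-Tg minus wild type on that scale, tested with limma and adjusted by Benjamini-Hochberg over all probe sets at a threshold of 0.05.

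Nrf2 is a basic leucine zipper factor that Keap1 binds in the cytosol and hands to a Cul3 ubiquitin ligase for degradation. When electrophiles or oxidants modify cysteines of Keap1, Nrf2 escapes, pairs with small Maf proteins and binds antioxidant response elements near genes for glutathione synthesis, thioredoxin recycling and quinone and haem breakdown. Beta cells are known for low levels of several peroxide-removing enzymes, and human IAPP aggregates have been linked to oxidative stress in them.

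The question here was whether the 10 genes differed between hIAPP-Tg and wild-type islets. None of the 21 probe sets passed the threshold (lowest limma adjusted p = 0.431, for Nqo1), where 13 of all probe sets (0.0289%) did. The largest difference among them was that of Nqo1, which was lower in hIAPP-Tg islets. The other 9 genes lay within 0.23 of 0 on their brightest probe sets, 8 of them above 0 and Slc7a11 at 0. Of all 18193 genes, 8738 lay above 0, 7360 below and 2095 at 0. At an unadjusted p under 0.05, taken gene by gene on the brightest probe set, Nqo1 was lower and Txnrd1 higher. Of all genes, 3.45% were lower and 5.02% higher at that p, so 1 gene of 10 each way is no result about the set.

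The promoters of the members whose upstream bases hold the core of the antioxidant response element are shown with that of Nqo1, the member with the largest difference. The core was searched as TGACNNNGC on both strands of RefSeq promoter windows of 300 bases (250 before to 50 after a gene's start, build GRCm38.p6), which were matched for 7 of the 10 genes by symbol. Capitals mark the match, which on the reverse strand reads GCNNNGTCA. Each sequence runs 5′ to 3′ on the strand of its gene.
Nfe2l2, chr2:75704854-75704913, minus strand: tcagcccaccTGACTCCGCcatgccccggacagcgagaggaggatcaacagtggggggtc
Gclm, chr3:122245398-122245457, plus strand: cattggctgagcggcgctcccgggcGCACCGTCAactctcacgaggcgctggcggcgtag
Txnrd1, chr10:82859089-82859148, plus strand: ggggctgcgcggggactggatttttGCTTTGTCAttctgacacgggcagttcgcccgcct
Nqo1, chr8:107403206-107403305, minus strand: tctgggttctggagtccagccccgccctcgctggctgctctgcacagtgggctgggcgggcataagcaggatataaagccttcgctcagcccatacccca

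The match began at base -240 from the start of Nfe2l2, at -134 from that of Gclm and at -92 from 1 of the 3 starts of Txnrd1. Srxn1 had a match after its start, which is not shown. No match stood in the windows of Nqo1, Keap1 and Slc7a11, which says only that these letters are not in those bases. Of all 32851 windows, 12.4% held a match. A match is a description of the letters and not a measured binding site.

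Nqo1, the quinone reductase that Nrf2 induces strongly in many tissues, was at 6.5, 6.5 and 6.8 in hIAPP-Tg mice 4, 5 and 6, against 7.0, 7.5 and 7.4 in wild-type mice 1, 2 and 3. Every hIAPP-Tg mouse lay under every wild-type mouse, with a gap of 0.2 between the highest hIAPP-Tg and the lowest wild-type mouse. The means were 6.6 ± 0.17 for the hIAPP-Tg and 7.3 ± 0.26 for the wild-type mice (SD, n = 3 each), a difference of -0.70 (SE 0.15, 95% interval -1.07 to -0.33), or 0.616 of the wild-type level. The unadjusted p was 0.00349 and the limma adjusted p 0.431, so the difference did not pass. Of all probe sets, 0.81% had an unadjusted p as small or smaller, and 0.269% a difference as low or lower. All values of Nqo1 lay above the array median of 5.7, but it was measured by 1 probe set only, so no second set of probes bears on it.

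**Figure D1:**
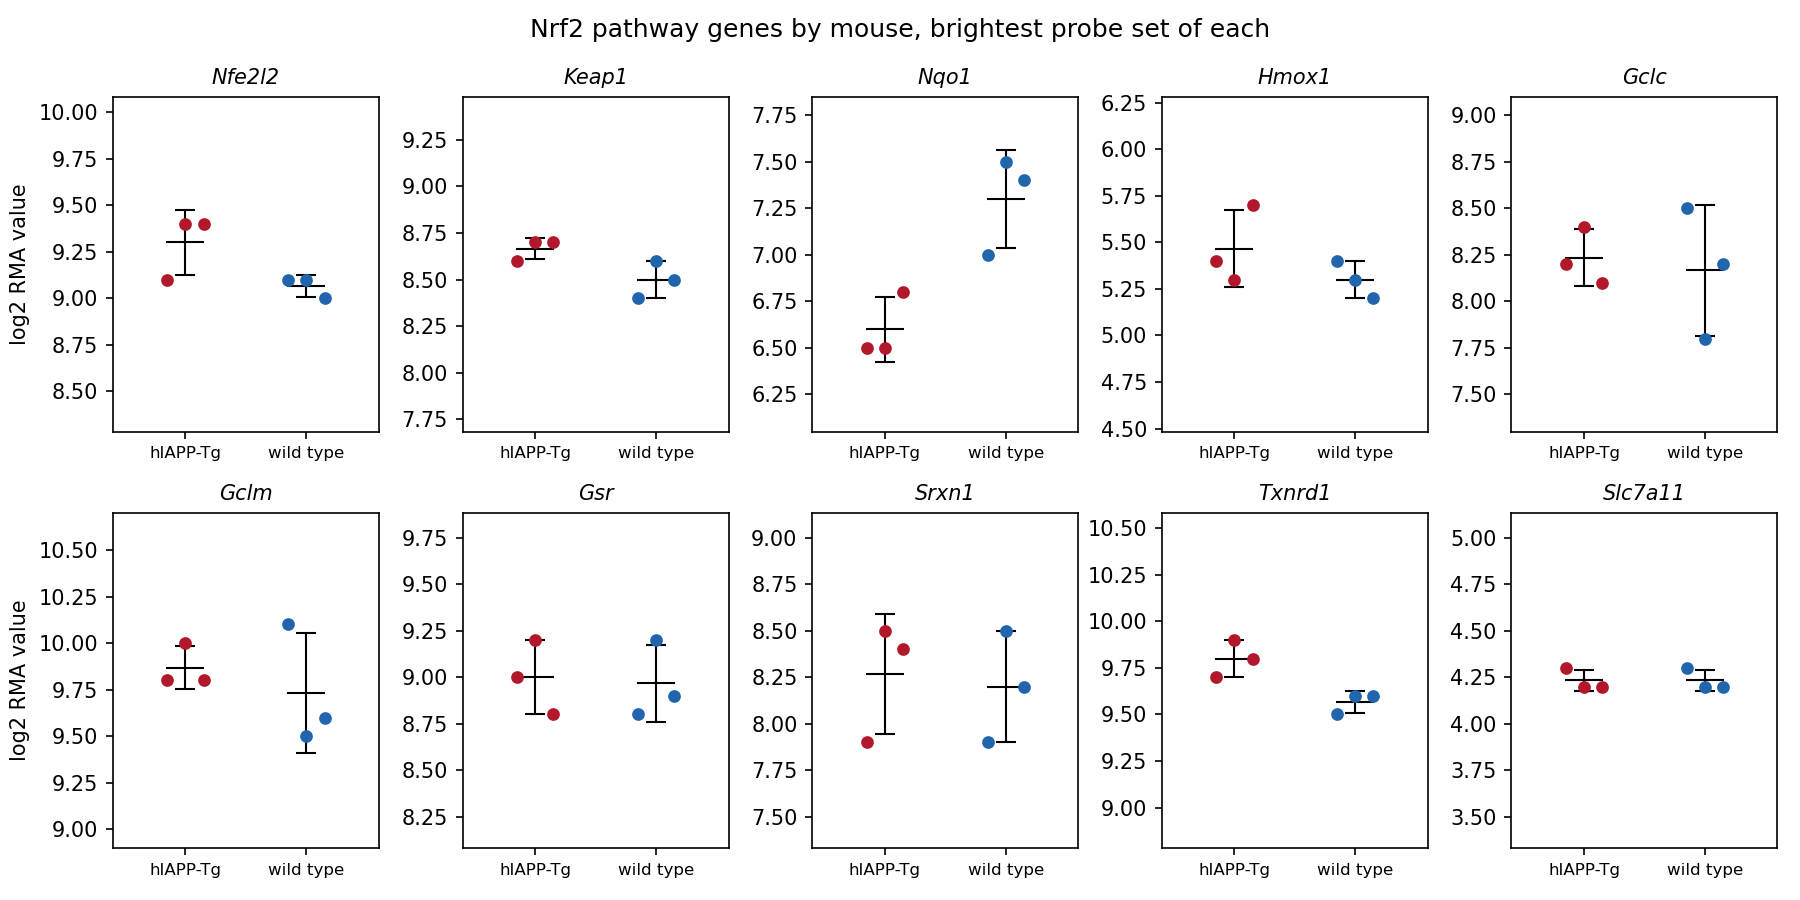
The 10 genes on their brightest probe sets, 1 point per mouse (hIAPP-Tg in red, wild type in blue), with the mean and SD in black; the vertical axis is the log2 RMA value and spans the same width in every panel. Only Nqo1, lower, and Txnrd1, higher, have hIAPP-Tg mice that all lie on one side of the wild-type mice.

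Of 5 marker lists for other cells in the preparation, those of macrophages and acinar cells had the medians farthest from 0. The other 3 are given at the end. All 5 lists were chosen with earlier results of these data known. Macrophage markers (18 measured, 16 above 0, against 8738 of all 18193 genes) had a median difference of 1.12. Of them 14 were higher and 0 lower at an unadjusted p under 0.05, against 5.02% higher and 3.45% lower among all genes. The mean of the macrophage markers was 8.21 to 8.36 on the hIAPP-Tg arrays and 7.13 to 7.32 on the wild-type arrays. Mpeg1, Tyrobp and Lyz1 passed in limma and rose by 1.57, 1.5 and 2.47, though the Lyz1 probes may also read its close copy Lyz2. The 4 markers not at that p, Cd14, Mrc1, Fcer1g and Itgam, differed by -0.13 to 0.17. Acinar markers had a median of -1.0 (18 measured, all below 0, against 7360 of all 18193 genes, and none at an unadjusted p under 0.05). Their mean was 11.24, 8.91 and 10.26 in hIAPP-Tg mice 4, 5 and 6, against 10.11, 11.39 and 11.73 in wild-type mice 1, 2 and 3, so the genotypes overlapped. With that mean as a covariate Nqo1 differed by -0.60 (unadjusted p = 0.0146, limma adjusted p = 0.713). The part of other cell types in the Nqo1 difference was not tested beyond these values, and in whole islets fewer cells of a type cannot be told apart from less RNA per cell.

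**Figure D2:**
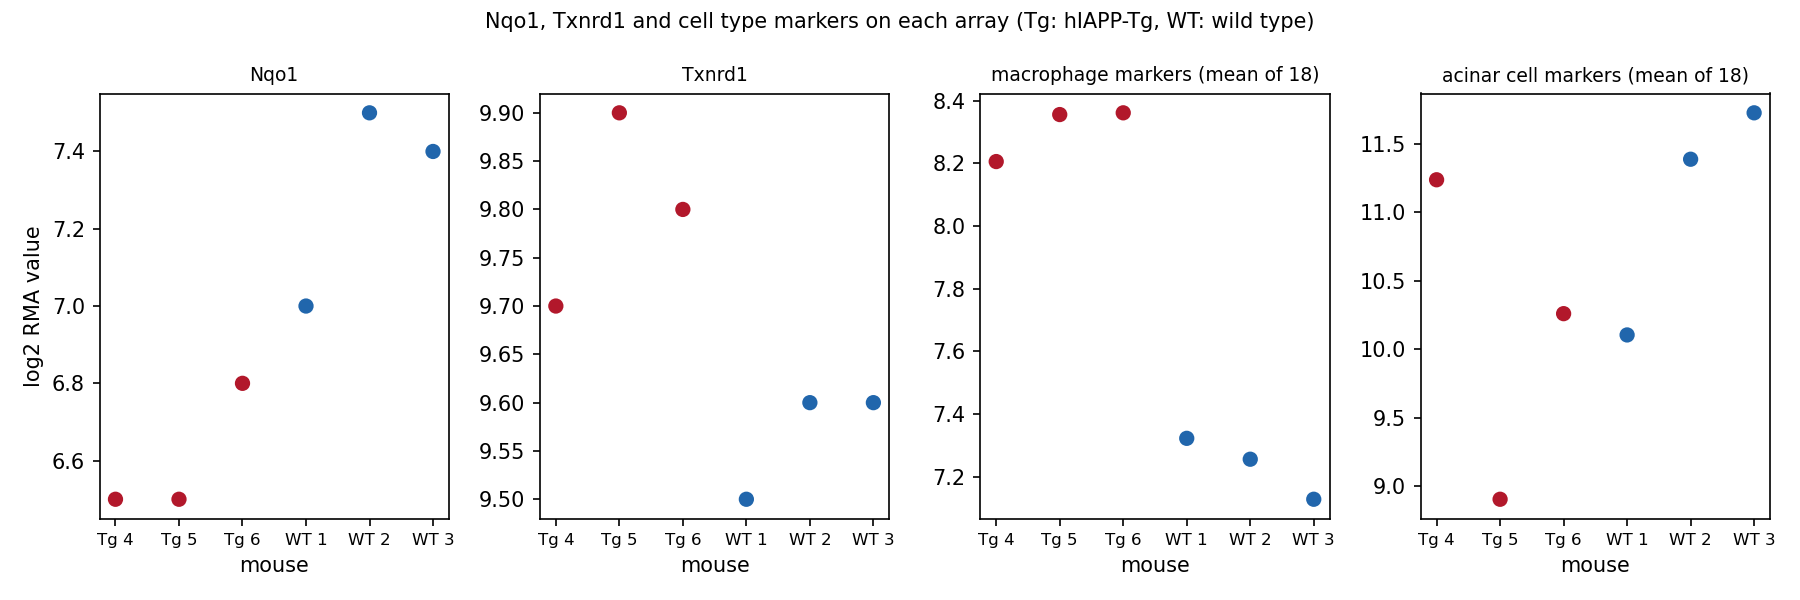
Nqo1, Txnrd1 and the means over 18 macrophage and 18 acinar markers on each array, as log2 RMA values; mice are on the horizontal axis, hIAPP-Tg in red and wild type in blue. The macrophage means do not overlap between genotypes (8.21 to 8.36 against 7.13 to 7.32), while the acinar means do.

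The regulators themselves were measured well above the array median by their brightest probe sets and differed little. Nfe2l2 was at 9.1, 9.4 and 9.4 in hIAPP-Tg mice 4, 5 and 6, against 9.1, 9.1 and 9.0 in wild-type mice 1, 2 and 3. hIAPP-Tg mouse 4 overlapped the wild-type mice, and the difference of 0.23 (SE 0.098, 95% interval -0.0038 to 0.47) had an unadjusted p of 0.0528 and a limma adjusted p of 0.632. A second, dim probe set of Nfe2l2 (mean 4.97) differed by 0.067. Without hIAPP-Tg mouse 4 the brighter set differed by 0.33, at an unadjusted p of 0.00265 and a limma adjusted p of 0.431. With any other array left out it differed by 0.18 to 0.25, at a limma unadjusted p of 0.094 to 0.158. The acinar mean as a covariate gave 0.14, at a limma unadjusted p of 0.178.

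Keap1, which holds Nrf2 down, was at 8.6, 8.7 and 8.7 in hIAPP-Tg and at 8.4, 8.6 and 8.5 in wild-type islets. The genotypes touched at 8.6, and the difference was 0.17 (SE 0.073, limma adjusted p = 0.632). Its second probe set was at 6.73 ± 0.058 in both genotypes (SD, n = 3 each) and differed by 0, with a 95% interval of -0.15 to 0.15. The activator and its repressor thus both lay slightly above 0 on their brightest probe sets, neither past the test. Since Keap1 acts on the Nrf2 protein, these transcript levels do not measure Nrf2 activity.

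Of the glutathione genes, Gclc encodes the catalytic and Gclm the modifier subunit of glutamate-cysteine ligase, the first enzyme of glutathione synthesis. Gclc was at 8.2, 8.4 and 8.1 in hIAPP-Tg mice and at 8.5, 7.8 and 8.2 in wild-type mice, so the genotypes overlapped fully (difference 0.067, 95% interval -0.38 to 0.51). Its dimmer probe set was at 7.8, 7.8 and 7.6 in hIAPP-Tg and 7.4, 7.6 and 7.5 in wild-type mice. That set differed by 0.23 (SE 0.086, unadjusted p = 0.0341, limma adjusted p = 0.620), with a tie at 7.6. The order of the wild-type mice was not the same on the 2 Gclc probe sets: mouse 1 was highest on one and lowest on the other.

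Gclm was at 9.8, 10.0 and 9.8 in hIAPP-Tg and 10.1, 9.5 and 9.6 in wild-type mice. As for Gclc, wild-type mouse 1 was the highest and mouse 2 the lowest of the wild-type mice, and the difference was 0.13 (SE 0.17, limma adjusted p = 0.862). Without wild-type mouse 1 it was 0.32, at an unadjusted p of 0.0185 and a limma adjusted p of 0.497. With any other array left out it was 0.017 (without wild-type mouse 2) to 0.17, and with the acinar mean as a covariate -0.037. The other probe set of Gclm differed by 0.20 (8.47 ± 0.15 in hIAPP-Tg and 8.27 ± 0.15 in wild-type mice, SD, n = 3 each). On that set mouse 1 was the lowest wild-type mouse, as on the dimmer set of Gclc. Gsr, glutathione reductase, was at 9.0, 9.2 and 8.8 in hIAPP-Tg and 8.8, 9.2 and 8.9 in wild-type mice, a difference of 0.033, and 0.10 on its second probe set. Neither set of Gsr had an unadjusted p under 0.05.

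Slc7a11, the cystine carrier of system xc- that feeds glutathione synthesis, sat near the floor of the arrays. It was at 4.3, 4.2 and 4.2 in hIAPP-Tg mice and likewise at 4.3, 4.2 and 4.2 in wild-type mice, and its second probe set lay at 3.87 in hIAPP-Tg and 3.90 in wild-type islets. Both sets lay under the lower quartile of all values, 4.4, and have no known signal over background, so a difference of 0 there does not show equal expression. ATF4 also drives this gene, and Atf4 itself stood at 11.7, 11.5 and 11.7 in hIAPP-Tg and 11.6, 11.9 and 11.5 in wild-type islets. These transcript levels do not measure ATF4 activity.

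The thioredoxin genes gave the only member other than Nqo1 whose genotypes did not overlap. Txnrd1, the cytosolic thioredoxin reductase, was at 9.7, 9.9 and 9.8 in hIAPP-Tg mice, against 9.5, 9.6 and 9.6 in wild-type mice. The lowest hIAPP-Tg and the highest wild-type value were 0.1 apart, which is the step to which the table is rounded. The difference was 0.23 (SE 0.073, 95% interval 0.056 to 0.41), or 1.18-fold, with an unadjusted p of 0.0177 and a limma adjusted p of 0.552. Both other probe sets were dim, at means of 4.8 and 3.53, and each differed by 0.067. With the acinar mean as a covariate the brightest set differed by 0.20 at an unadjusted p of 0.0640, and with its 3 probe sets averaged Txnrd1 differed by 0.12. Among the 21 probe sets the genotypes did not overlap for 1 higher (Txnrd1) and 1 lower (Nqo1), against 3.44% higher and 3.22% lower among all probe sets.

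Srxn1, sulfiredoxin, which repairs overoxidised peroxiredoxins, varied more between mice than between genotypes. Its brightest probe set was at 7.9, 8.5 and 8.4 in hIAPP-Tg mice and 7.9, 8.5 and 8.2 in wild-type mice (difference 0.067, SE 0.21). A range of 0.6 within each genotype stood against that difference. The next probe set was at 7.5, 7.9 and 7.8 in hIAPP-Tg and 7.1, 7.8 and 7.5 in wild-type mice. It again had mouse 4 and mouse 1 lowest in their genotypes, and its difference, 0.27 (SE 0.19, limma adjusted p = 0.770), was the highest of the 21 probe sets. The remaining 2 sets differed by -0.033 and 0.

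Hmox1, haem oxygenase, which macrophages also express, lay just under the array median of 5.7. It was at 5.4, 5.3 and 5.7 in hIAPP-Tg and at 5.4, 5.3 and 5.2 in wild-type islets. hIAPP-Tg mouse 6 alone was above the range of the wild-type mice, and the difference of 0.17 (SE 0.12, limma adjusted p = 0.756) was 0.05 without that mouse. The macrophage markers are given above with Nqo1, and their part in the Hmox1 values was not tested.

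**Figure D3:**
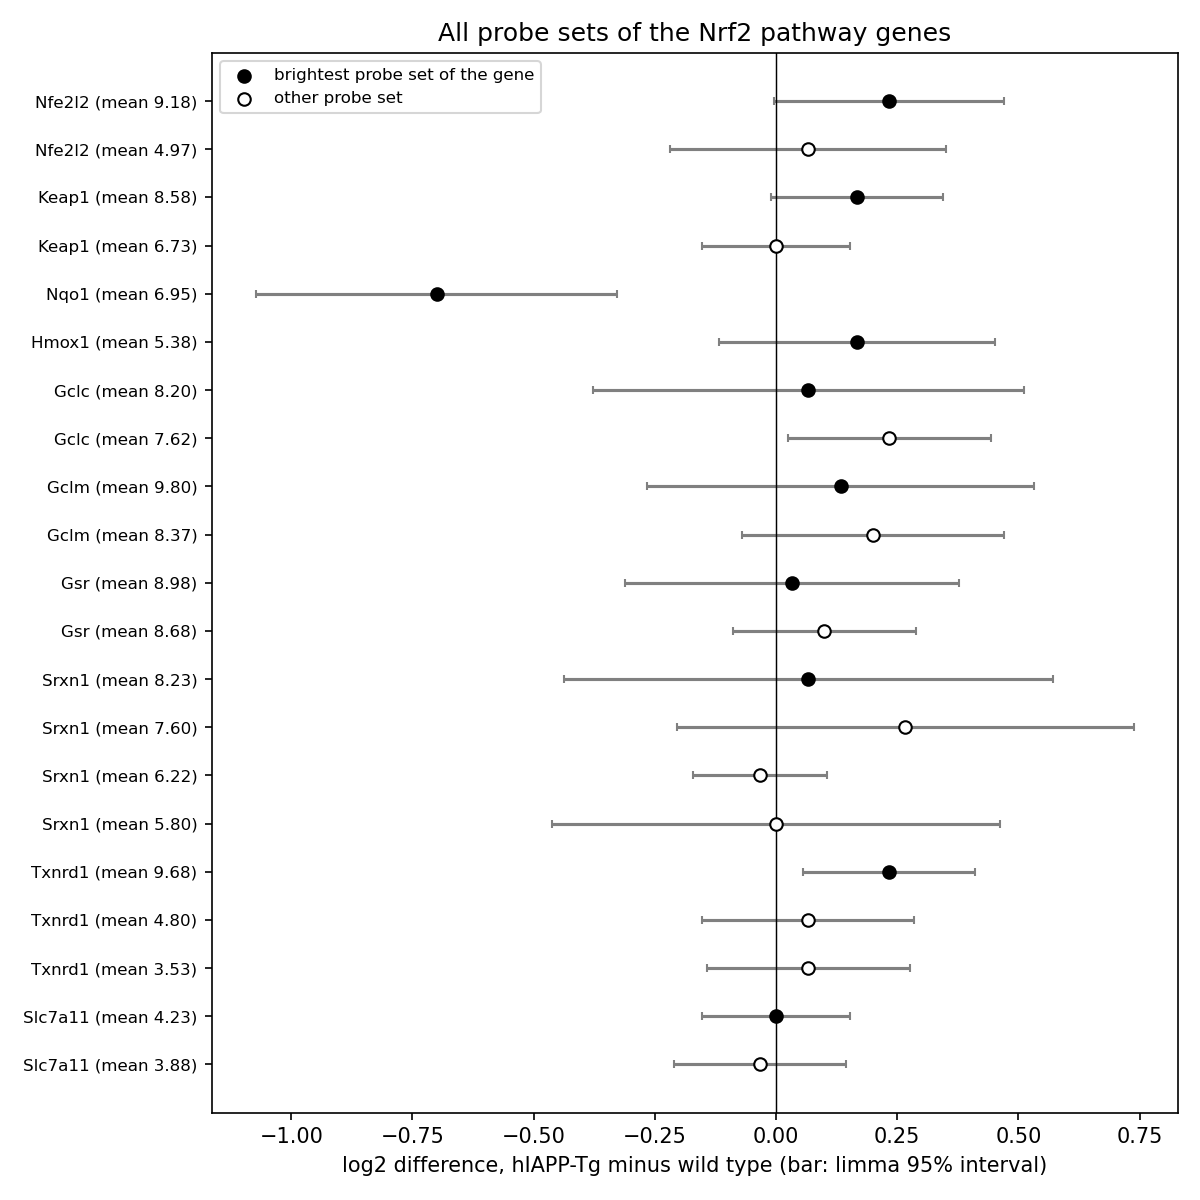
The log2 difference (hIAPP-Tg minus wild type) of all 21 probe sets with its limma 95% interval, filled for the brightest set of each gene and open for the others; the mean level over all arrays stands in the axis labels. Nqo1 at -0.70 is the 1 set whose interval lies wholly below 0, while 1 set each of Gclc and Txnrd1 lies wholly above it.

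Over the 21 probe sets, 15 differences were above 0, 3 below and 3 at 0. Their median was 0.067, against 0 over all probe sets, whose signs were not counted. At an unadjusted p under 0.05 there were 2 higher and 1 lower, against 3.82% higher and 3.51% lower among all probe sets. Over the 10 genes by brightest probe set the median was 0.10, against 0 over all 18193 genes. The 11730 genes with a mean above the overall median, 8 of the 10 among them, had a median of 0.033. With the acinar mean as a covariate the median of the 10 genes was 0.0093, against 0.016 over all genes. Without hIAPP-Tg mouse 4 it was 0.18, against 0.017 over all genes. The mean over the 10 genes overlapped between genotypes, at 7.85, 8.01 and 7.97 in hIAPP-Tg mice 4, 5 and 6 and 7.90, 7.93 and 7.88 in wild-type mice 1, 2 and 3.

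Partners and regulators of Nrf2 (14 measured) had a median difference of 0.05, with none past the threshold, 4 higher and 0 lower at an unadjusted p under 0.05, against 5.02% higher and 3.45% lower among all genes. Maff, a small Maf protein that pairs with Nrf2, was at 7.0 ± 0.10 in hIAPP-Tg and 6.63 ± 0.15 in wild-type islets (difference 0.37, limma adjusted p = 0.503). Bach1, which competes with Nrf2 for its elements and represses Hmox1, differed by 0.30, and Sqstm1, the autophagy adaptor p62 that binds Keap1 and is itself a target, by 0.23. Gsk3b, a kinase that marks Nrf2 for a second degradation route, differed by 0.17. The other small Maf genes gave 0.033 for Mafk and -0.13 for Mafg, and Cul3, the ligase scaffold, differed by -0.10. The lowest of the list was Rbx1, the ring protein of that ligase, at -0.30 (unadjusted p = 0.182).

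Other known Nrf2 targets (27 of 33 measured) had a median difference of 0.067, with none past the threshold, 5 higher and 0 lower at an unadjusted p under 0.05, against the same shares of all genes. Gstp1, a glutathione transferase, had the smallest p among them. It was at 11, 11.2 and 11.1 in hIAPP-Tg and 10.7, 10.7 and 10.5 in wild-type islets. These did not overlap, and the difference was 0.47 (SE 0.086, unadjusted p = 0.00144, limma adjusted p = 0.375). The epoxide hydrolase Ephx1 differed by 0.40, the transferase Gstm1 by 0.37 and the ferritin heavy chain Fth1 by 0.27, all without overlap of the genotypes. In the other direction, Mgst1 and Gstm2, also glutathione transferases, each differed by -0.40 with overlap, and Ptgr1, a prostaglandin reductase, by -0.23 without overlap. In all, 5 of the 27 were higher and 1 lower without overlap, against 4.49% higher and 3.22% lower among all genes. Gstm1 and Gstm4 belong to a family of near-identical genes whose probes may read each other. Nqo2, the paralog of Nqo1, was at 7.7, 7.9 and 7.8 in hIAPP-Tg and 7.8, 7.9 and 7.7 in wild-type islets and differed by 0. Macrophages express Fth1 and Gpx1 too, and the part of the higher macrophage markers in these values was not tested.

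Enzymes that supply NADPH, the electron source of Nqo1, Gsr and Txnrd1, had a median of 0.13 (9 measured). Of them 8 lay above 0, against 8738 of all 18193 genes, with 1 higher and 0 lower at an unadjusted p under 0.05. That one was Pgd, of the pentose phosphate pathway, at 9.17 ± 0.15 in hIAPP-Tg and 8.83 ± 0.15 in wild-type islets (difference 0.33, limma adjusted p = 0.557). Further genes of glutathione and cystine handling had a median of 0.067 (17 measured), with 2 higher and 0 lower. They were Gss, glutathione synthetase, at 7.0, 7.1 and 7.2 in hIAPP-Tg and 6.8 in all wild-type mice (difference 0.30, limma adjusted p = 0.449), and the peroxidase Gpx1 (0.27). Slc3a2, the heavy chain that carries Slc7a11 to the membrane, differed by 0.10. ATF4 stress genes, listed because ATF4 also drives Slc7a11, had a median of 0.067 (14 measured). Of them Ddit4 (0.43), Cebpb (0.40) and Atf3 (0.33) were higher at an unadjusted p under 0.05, 0 were lower and none passed the threshold. The counts of these 3 lists, 1 of 9, 2 of 17 and 3 of 14 higher, stand against 5.02% higher and 3.45% lower among all genes.

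**Figure D4:**
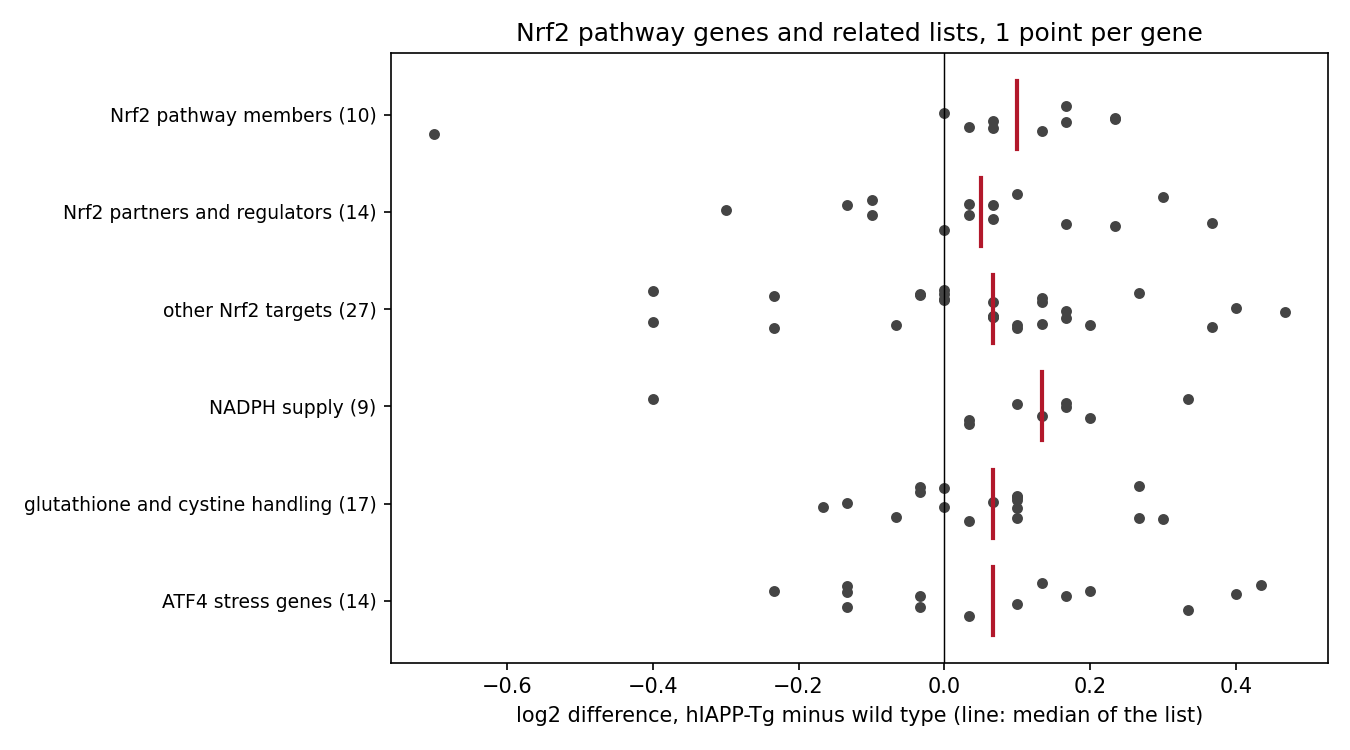
Log2 difference (hIAPP-Tg minus wild type) of each gene by its brightest probe set, for the 10 Nrf2 pathway genes and 5 related lists, with the number measured in brackets and a red line at each median. The medians lie between 0.05 and 0.13, and Nqo1 at -0.70 is the lowest point of all 6 lists.

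Hormone genes stood near the top of the scale, though acinar genes such as Cela3b (11.2 to 14.3) also reached high values. The mean over 13 islet endocrine markers was 13.22 to 13.40 on the hIAPP-Tg and 13.38 to 13.45 on the wild-type arrays. Of these 13 only Chgb, a granule protein, was higher at an unadjusted p under 0.05 (0.20), and 0 were lower. Duct cell markers (13 measured) had a median of 0 and a mean of 7.57 to 7.66 on the hIAPP-Tg and 7.57 to 7.62 on the wild-type arrays, with Krt7 (0.33) and Epcam (0.17) higher at that p and 0 lower. Endothelial markers (12 measured) had a median of -0.05 and a mean of 7.94 to 8.01 on the hIAPP-Tg and 8.05 to 8.09 on the wild-type arrays, which did not overlap. They had 4 lower and 0 higher, Emcn (-0.37), Tek (-0.33) and Egfl7 (-0.30) among them. Stellate cell and fibroblast markers (12 measured) had a median of -0.15 and a mean of 7.88 to 8.06 on the hIAPP-Tg and 7.78 to 8.4 on the wild-type arrays, with 3 higher and 1 lower, of which Acta2 (0.60), Mgp (0.53) and Lum (-0.50) differed most. The counts of these marker lists at that p stand against 5.02% higher and 3.45% lower among all genes. The part of these cell types in the values of the 10 genes was not tested. Probes for mouse Iapp need not read the human transgene, so the genotype labels were not checked by it here.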

How the data were processed

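Islet RNA of 3 hIAPP-Tg and 3 wild-type mice was hybridised to Affymetrix mouse arrays, 1 per mouse. The deposited table holds log2 values made by the authors with RMA and affy, per the submitters' processing notes; for versions and scan batches the sources used here give nothing. Values run from 2.9 to 15.1 in steps of 0.1 and have a median of 5.7 on each array; RMA makes array distributions alike and compresses differences near the floor. Arrays have no read depth, and their number limits the precision.

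After 64 control probe sets were left out, 45037 were tested with limma 3.58.1 in R 4.3.3 (two-sided lmFit and eBayes on genotype alone) and adjusted by Benjamini-Hochberg. Symbols came from the platform annotation, looked up by Entrez number in RefSeq (GRCm38.p6). The probe set with the highest mean stood for a gene in the lists. The members and all 12 lists (177 of 194 entries measured) were chosen with earlier results of these data known; of each further pathway list up to 4 genes at an unadjusted p under 0.05 were named in order of difference, of each marker list up to 3, those past the threshold first. Others, such as Nqo2, Slc3a2, Atf4, Cul3, Mafk, Mafg, Gstm4, Gstm2, Mgst1, Ptgr1, Rbx1, Cd14, Mrc1, Fcer1g and Itgam, were named after their values were seen. Replicate numbers differ between genotypes. P-values test the genotype difference against the spread between mice, which limma moderates over all probe sets, with 3 mice per genotype.

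Alternatives were array scaling by quantiles or by medians, 2 minimum levels for probe sets, an intensity trend, a robust prior, array weights, averaged probe sets, the acinar mean as covariate and leaving out each array. On simulated data (45037 probe sets, hIAPP-Tg against wild type) 70% of changes of 1 on the log2 scale and 92% of changes of 2 were recovered. Figures used matplotlib 3.10.9.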

Additional observations from a re-analysis of the deposited data

How the results depend on the processing

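Nqo1 was lower in all 15 alternatives, at -0.85 to -0.60, with an unadjusted p under 0.05 in each and a limma adjusted p of 0.240 to 0.713. Median centring, the filters, the intensity trend, the robust prior and averaging of probe sets left its difference at -0.70, as they had to. All arrays already had a median of 5.7, and Nqo1 has 1 probe set. The filters, the trend and the prior can change its p-values but not its difference. With 1 array left out Nqo1 was -0.85 to -0.60, and its sign could not turn there because the genotypes did not overlap. The same holds for array weights. Only quantile normalization (-0.71) and the acinar covariate (-0.60) could have turned its sign. The alternatives reuse the same arrays and are not independent support. No member passed the threshold in any of them. Txnrd1 had an unadjusted p under 0.05 in 13 of 15, Nfe2l2 in 4 (0.00265 without hIAPP-Tg mouse 4), Keap1 in 3 (0.0224 without wild-type mouse 2) and Gclm in 1 (0.0185 without wild-type mouse 1). The number of probe sets passed was 13, against 30 with quantile normalization, 21 with the filter at the lower quartile, 51 with a robust prior, 26 with array weights, 3 with the acinar covariate and 1 to 4 with 1 array left out. The median of the 10 genes, 0.10, was 0.0093 with the acinar covariate and 0.042 to 0.18 with 1 array left out. Differences that turned were those close to 0: with the acinar covariate Gclc was -0.084 and Gclm -0.037, and with quantile normalization Gsr was -0.011. With 1 array left out Gclc was -0.12 to 0.23, Gsr -0.067 to 0.15, Srxn1 -0.083 to 0.25 and Gclm 0.017 to 0.32. The list medians in the text ran, with 1 array left out, from 0.017 to 0.11 for partners, 0.017 to 0.10 for other targets, 0.10 to 0.18 for NADPH supply, 0.017 to 0.12 for glutathione handling and -0.042 to 0.16 for ATF4 genes, and NADPH supply was at 0.067 with quantile normalization. The filters on dim probe sets left out Slc7a11, and the stricter one Hmox1. The cause was not tested. Probe sets under the array median, 6 of the 21, have no known signal above background. No paired analysis was possible because the genotypes share no replicate number.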
